A study of Mus musculus with 4 samples.

Results

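PPP2CA regions that lie at the ends of 2 or more neighbouring protein-coding genes were examined in mouse haematopoietic stem cells. The regions were chosen by the deposited peak calls and by gene position: peaks of both PPP2CA libraries were merged, regions touched by both libraries and by no IgG peak were kept, and members were those within 1 kb of the boundaries of at least 2 different protein-coding genes. Of 12438 such replicated regions, 7509 lay within 1 kb of any protein-coding gene boundary, and 1506 of these were members (20.1%, 95% exact interval 19.2 to 21.0). The other 6003 lay at the boundary of 1 gene. The study mapped PPP2CA by CUT&Tag, in which an antibody brings a transposase to its target so that adapters are cut into the DNA nearby. The cells were primary haematopoietic stem cells of bone marrow. All mice were wild type for Ppp2ca, and 2 libraries were made with a PPP2CA antibody and 2 with control IgG. The labels give no age, strain or sorting gate for the mice and do not tie the libraries to separate animals. The PPP2CA libraries (PPP2CA 1 and 2) held 16811 and 17686 peaks with a median summit of 18 fragments in each, whereas IgG 1 and IgG 2 held 561 and 310 peaks with a median summit of 4 fragments. The IgG libraries were thus shallow, and IgG signal at a member could have gone uncalled. No library without PPP2CA protein was part of the comparison, so the specificity of the antibody was not tested.

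PPP2CA is a catalytic subunit of PP2A, a serine/threonine phosphatase that is assembled from catalytic, scaffold and regulatory subunits and acts in the cytoplasm and in the nucleus. Many mammalian genes start close to a neighbour transcribed in the opposite direction, a head-to-head arrangement called a divergent pair, and the stretch between the starts then serves both genes as a bidirectional promoter. Such promoters are typically rich in CpG dinucleotides, rarely hold a TATA box, and are common at genes for DNA repair, mitochondria and other housekeeping functions. Neighbours can also lie in tandem, with the end of one gene next to the start of the other, or converge, with both ends facing.

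To show what such a shared stretch looks like, the bases between the 2 start sites are printed for 8 divergent member pairs. Of these, 6 were taken by rank, at 177 to 515 by the poorer of the 2 library ranks. The other 2 are long-known bidirectional pairs. Some divergent members of better rank, such as Mrps18b and Ppp1r10 at 107, are not among them. Only stretches that the RefSeq promoter table of GRCm38.p6 holds in full are printed. They are read on the + strand, 5′ to 3′, so the gene named first starts at the left edge and runs to the left, and the gene named second starts at the right edge and runs to the right. Capitals mark matches on either strand to the letters searched, among them CCAAT (the NFY box), CCGGAAG (ETS factors), GGGCGG (SP and KLF factors), GCGCATGC (NRF1), TGACGTCA (CRE), TGANTCA (AP-1) and TATAAA (the TATA box). A match is a description of the letters and not a measured binding site.
H2ac8–H2bc8: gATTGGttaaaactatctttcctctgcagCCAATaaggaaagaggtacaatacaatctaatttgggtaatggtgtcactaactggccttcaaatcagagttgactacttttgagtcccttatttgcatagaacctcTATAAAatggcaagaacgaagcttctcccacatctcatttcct
H2bc13–H2ac13: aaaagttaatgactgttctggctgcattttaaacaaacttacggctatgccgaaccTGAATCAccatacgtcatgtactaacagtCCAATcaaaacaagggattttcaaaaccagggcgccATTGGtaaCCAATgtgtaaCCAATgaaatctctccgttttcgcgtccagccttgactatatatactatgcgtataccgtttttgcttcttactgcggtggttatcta
H2ac11–H2bc11: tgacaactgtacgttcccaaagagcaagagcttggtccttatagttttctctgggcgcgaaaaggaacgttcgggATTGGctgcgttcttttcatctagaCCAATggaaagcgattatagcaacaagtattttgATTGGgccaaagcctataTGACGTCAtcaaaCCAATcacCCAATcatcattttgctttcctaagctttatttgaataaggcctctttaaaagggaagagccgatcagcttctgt
Idh3g–Ssr4: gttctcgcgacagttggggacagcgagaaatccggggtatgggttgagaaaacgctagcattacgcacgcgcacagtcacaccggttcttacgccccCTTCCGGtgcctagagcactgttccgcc
Ints13–Fgfr1op2: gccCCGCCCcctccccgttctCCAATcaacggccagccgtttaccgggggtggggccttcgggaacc
Brca1–Nbr1: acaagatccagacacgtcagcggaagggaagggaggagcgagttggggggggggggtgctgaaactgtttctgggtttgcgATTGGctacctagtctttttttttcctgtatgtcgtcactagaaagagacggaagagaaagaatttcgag
Ranbp1–Trmt2a: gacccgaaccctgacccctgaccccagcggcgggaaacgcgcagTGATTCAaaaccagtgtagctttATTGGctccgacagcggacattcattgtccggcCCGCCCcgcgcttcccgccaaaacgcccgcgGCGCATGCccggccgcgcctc
Atm–Npat: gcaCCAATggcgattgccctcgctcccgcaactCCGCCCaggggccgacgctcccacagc

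The 3 histone stretches come from chromosome 13, where clusters of replication-dependent histone genes lie, at chr13:23571221-23571399, chr13:21716184-21716411 and chr13:22042950-22043197. Their GC content was 38.5%, 40.8% and 42.3%, and CCAAT matched 2, 4 and 5 times. The region at H2ac8 and H2bc8 reached 346 summit fragments in PPP2CA 1 and 386 in PPP2CA 2, that at H2bc13 and H2ac13 reached 245 and 274, and that at H2ac11 and H2bc11 reached 219 and 267. Histone genes are near-identical copies of each other, and no source used here says how reads that fit several copies were placed, so these heights are uncertain. The other 5 stretches were shorter and richer in GC, from 50.3% at Brca1 to 71.7% at Atm. Between Idh3g, a subunit of mitochondrial isocitrate dehydrogenase, and Ssr4, a subunit of the translocon-associated protein complex (chrX:73786898-73787022), 125 bases held 12 CpG and 1 ETS match, with 142 and 147 summit fragments. Between Ints13, a subunit of the Integrator complex, and Fgfr1op2 (chr6:146577836-146577902), 67 bases held 1 CCAAT box and 1 GGGCGG match at a GC content of 71.6%, with 128 and 139 fragments. Brca1, which acts in homologous recombination, and the autophagy receptor gene Nbr1 were separated by 151 bases (chr11:101551956-101552106) and shared a region of 126 and 154 fragments. Ranbp1, a cofactor of the nuclear transport GTPase Ran, and the tRNA methyltransferase gene Trmt2a (chr16:18248695-18248846) shared one of 115 and 131 fragments. Atm, the kinase that responds to DNA double-strand breaks, and Npat, a regulator of histone gene transcription (chr9:53536829-53536888), shared one of 60 and 67 fragments.

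Nearly all members had facing ends of neighbours within reach. In 1452 of the 1506 members (96.4%, 95.3 to 97.3) the boundaries within 1 kb included the high-coordinate end of one gene and the low-coordinate end of another that faces it. Such a pair set the class even where 2 ends of the same side lay closer together. How often close genes have facing ends by layout alone was not counted, so the 96.4% is a description. The other 54 members had no facing pair, and their nearest boundaries were 2 low or 2 high ends. The gene table carries no strand, and the promoter table gave one for 80.3% of the protein-coding genes. Both strands were known at 1104 of the 1452 facing pairs. Of these, 767 were divergent (69.5%, 66.7 to 72.2), 300 were tandem (27.2%) and 37 were convergent (3.35%). A further 348 facing pairs lacked a strand for at least 1 gene. The genes of 411 facing pairs overlapped each other. Of the 1506 members, 1455 lay at exactly 2 genes, 49 at 3 genes and 2 at 4 or more. Members touched 2939 of the 8609 protein-coding genes with a region (34.1%). Over all genes, 39.5% had a region within 1 kb of a boundary, and over all gene ends 21.2% had one.

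Most members with known strands lay within 1 kb of at least 1 gene start. Of the 1132 members at which every gene had a known strand, 794 (70.1%, 67.4 to 72.8) lay within 1 kb of the starts of at least 2 genes, 317 (28.0%) of the start of 1 gene and 21 (1.86%) of no start. Among the tandem members, 287 of 299 touched exactly 1 start. Among the convergent members, 20 of 34 touched none. By definition the facing ends are 2 starts in a divergent pair, 1 in a tandem pair and none in a convergent pair. These counts therefore largely restate the classes.

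Because the members were selected on having a region, the same question was put to gene pairs chosen by position alone. There were 4129 neighbouring pairs of protein-coding genes whose facing ends overlapped or lay at most 2 kb apart, and 1 region lay in the windows of both genes at 1490 of them (36.1%). Divergent pairs carried a shared region most often, at 776 of 1006 pairs (77.1%, 74.4 to 79.7). Tandem pairs carried one at 313 of 895 (35.0%, 31.8 to 38.2) and convergent pairs at 41 of 1041 (3.94%, 2.84 to 5.31). These intervals do not overlap. Pairs with an unknown strand fell between, at 360 of 1187 (30.3%). As a comparison outside close pairs, added after the data were seen, gene ends were taken with no other protein-coding gene within 3 kb. Of 11161 such lone starts, 36.6% (35.7 to 37.5) had a region within 1 kb, and of 10643 lone ends 1.16% (0.961 to 1.38). The share of lone ends became 1.99% without PPP2CA replicate 1 and 1.89% without PPP2CA replicate 2, where a call in 1 library was enough. A divergent pair offers 2 starts and a wider window than a lone start, and that part of the difference was not tested. A pair counted only where 1 region lay in both windows, a lone start or end where any region lay in its own. With a region at either end enough, the shares were 80.4% of divergent, 49.5% of tandem and 7.49% of convergent pairs. A pair then has 2 windows against 1. When the summits of both libraries had to lie in the windows of both genes, the shares were 72.0% for divergent, 22.2% for tandem and 1.15% for convergent pairs, against 34.7% of lone starts. With a window of 2 kb they were 80.9%, 49.4% and 9.41%, against 38.3%, and with at least 20 summit fragments 60.6%, 25.5% and 2.69%, against 22.7%.

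The share at divergent pairs held up to a separation of about 500 bp and then dropped. It was 76.5% for pairs whose genes overlap, 84.3% under 250 bp, 84.1% from 250 to under 500 bp, 61.0% (44.5 to 75.8) from 500 to under 1000 bp and 25% (14.4 to 38.4) from 1000 to 2000 bp. In the last class 64.3% (50.4 to 76.6) of the pairs had a region at either end, against 84.3% under 250 bp. Separate regions at the 2 starts were found at 4 of the 1006 divergent pairs, 3 of them among the 56 pairs from 1000 to 2000 bp apart. The windows of closer starts cover mostly the same bases, so the rule itself makes separate regions rare there. Tandem pairs showed another course, with 47.1% under 250 bp, 53.1% (45.8 to 60.2) from 500 to under 1000 bp and 17.6% (13.9 to 21.9) from 1000 to 2000 bp. In both classes from 500 bp upward the intervals of divergent and tandem pairs overlapped. With a region at either end counted, tandem pairs had 47.8% under 250 bp and 56.6% from 500 to under 1000 bp. From 1000 to 2000 bp they had 49.2% (44.0 to 54.4), so the fall to 17.6% was in shared regions. Among convergent pairs from 500 to under 1000 bp apart, 0 of 157 had a shared region, which allows a share of up to 1.91%.

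**Figure D1:**
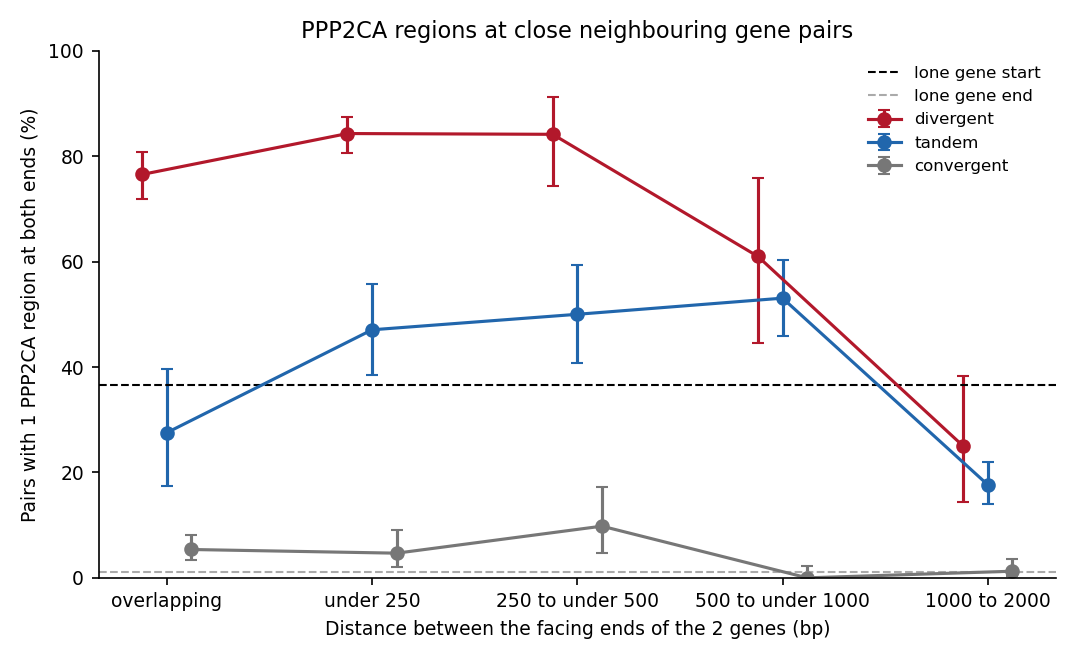
Share of neighbouring gene pairs with 1 PPP2CA region in the windows of both genes (vertical axis, %), by the distance between the facing ends (horizontal axis, bp) and by orientation; points are shares, bars are 95% exact intervals, and dashed lines give the share of lone gene starts and lone gene ends with a region. Divergent pairs lie between 76.5% and 84.3% under 500 bp, and convergent pairs stay under 10% at every distance. A pair counts only where 1 region lies in both windows, a lone start or end where any region lies in its own.

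The order of the orientations was the same in each PPP2CA library taken alone. In PPP2CA 1, 1 peak spanned both windows at 81.5% of divergent, 35.4% of tandem and 4.03% of convergent pairs, and in PPP2CA 2 at 82.0%, 36.2% and 5.57%. Over all 4129 pairs the shares were 37.8% in PPP2CA 1 and 38.8% in PPP2CA 2. At the 1006 divergent pairs the libraries shared most calls: 791 pairs had a peak in both, 29 in PPP2CA 1 only, 34 in PPP2CA 2 only and 152 in neither. The IgG libraries called few pairs, 26 of 4129 in IgG 1 (0.63%) and 11 in IgG 2 (0.266%). IgG 1 had a peak at 1.59% (0.912 to 2.57) of divergent pairs against 0.439% of lone starts, and IgG 2 at 0.795% (0.344 to 1.56) against 0.125%. At tandem pairs IgG 1 had 1 peak and IgG 2 had 0 in 895 pairs, which allows a share of up to 0.335%, and at the 1041 convergent pairs each had 1. The part of such control signal in the PPP2CA shares was not tested. Among the 193 replicated regions set aside because an IgG peak touched them, 38 (19.7%) lay at 2 or more genes, against 12.1% of the replicated regions without an IgG peak.

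**Figure D2:**
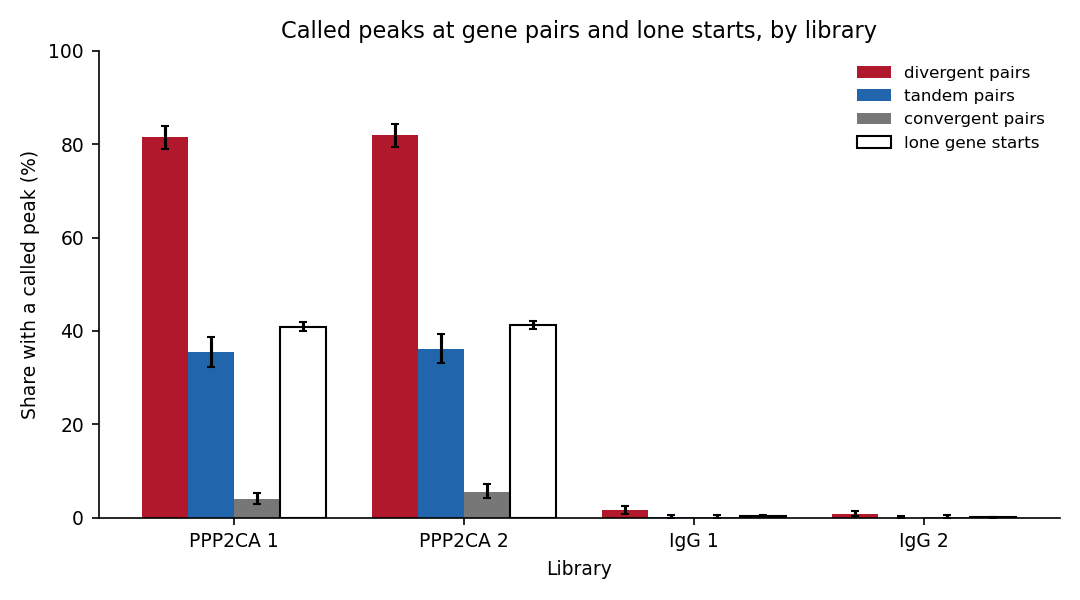
Share of divergent, tandem and convergent gene pairs with 1 called peak in the windows of both genes, and of lone gene starts with a called peak (vertical axis, %), in each of the 4 libraries; error bars are 95% exact intervals. The PPP2CA libraries reach 81.5% and 82.0% of divergent pairs, and the IgG libraries stay at or under 1.59%.

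Regions found in a single PPP2CA library were seldom shared by neighbours. Of 4112 regions in PPP2CA 1 alone 1.97% lay at 2 or more genes, and of 5012 in PPP2CA 2 alone 2.13%, against 12.1% of the replicated regions without an IgG peak.

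Divergent members reached over both starts and into both genes. A single peak in each library made up 762 of the 767, as it did 5958 of the 6003 regions at 1 gene, and peaks that do not overlap would have been counted as separate regions. Measured from the midpoint of the 2 starts, the median divergent region reached 538 bp toward the left gene and 547.5 bp toward the right one. Regions at the start of 1 gene were lopsided: they reached 310 bp upstream and 651 bp downstream (medians of 4706 regions). Their summit lay downstream of the start in 68.0% of regions in PPP2CA 1 and 68.9% in PPP2CA 2, at a median of 95 and 98 bp. From its own start, a divergent region reached 537 bp into each gene (median), less than the 651 bp at the start of a single gene. The midpoint is symmetric by construction, so only the reach and not the symmetry is a measurement.

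Summits of divergent regions lay close to the starts. In the 486 divergent members whose genes do not overlap, the summit lay inside a gene in 351 regions in PPP2CA 1 (72.2%) and in 349 in PPP2CA 2 (71.8%). The stretch between the starts is short beside the regions, with a median of 71.5 bp in the 378 regions under 250 bp, so most of such a region is inside a gene by position alone and the share is not read further. The summit's median distance to the nearer start was 97 and 102 bp. The left gene was nearer in 48.5% and 48.1% of the regions, so neither side of the chromosome was favoured. The libraries placed the summit nearer to the same gene in 612 of 767 regions (79.8%), and their summits were 66 bp apart at the median. At Brca1 and Nbr1 the summits lay 282 and 265 bp inside Nbr1, and at Atm and Npat 22 and 27 bp inside Npat. At Ranbp1 and Trmt2a they lay inside Trmt2a, but 536 bp from its start in PPP2CA 1 and 203 bp in PPP2CA 2. At H2ac8 and H2bc8 they lay between the genes, 100 and 45 bp from the H2ac8 start.

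**Figure D3:**
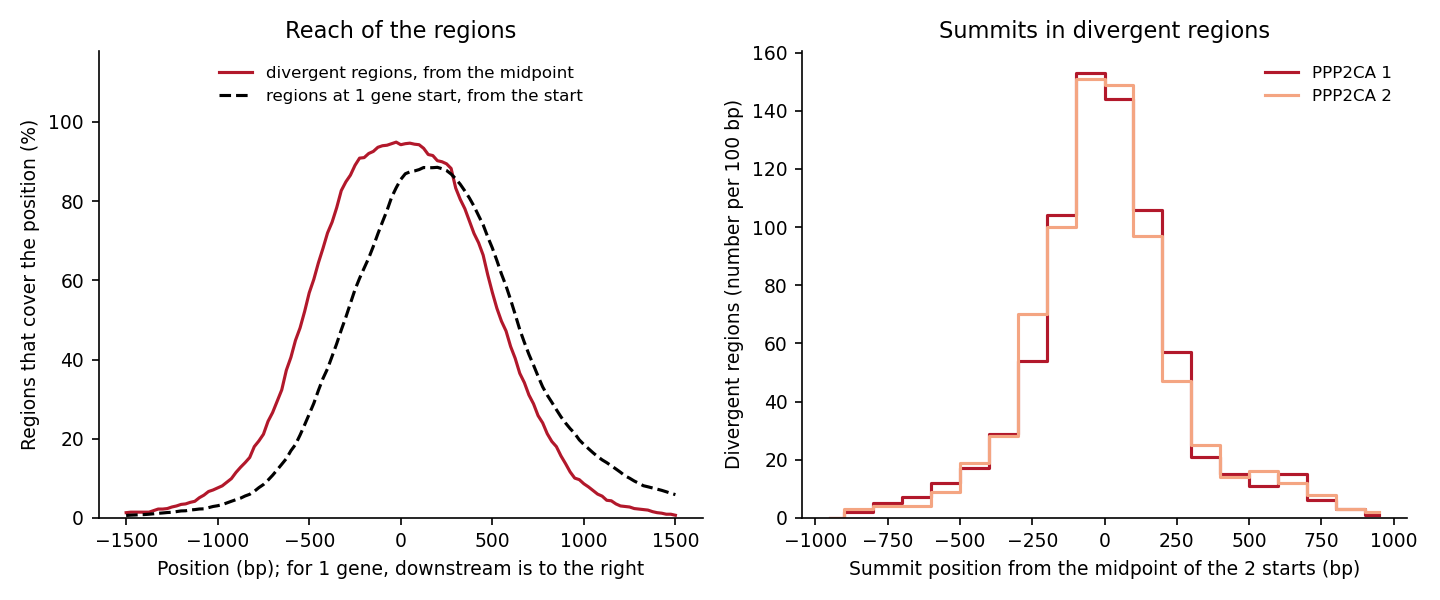
Left, share of regions that cover each position (vertical axis, %) for the 767 divergent members, measured from the midpoint of the 2 starts, and for the 4706 regions at 1 gene start, measured from that start with downstream to the right (horizontal axis, bp). Right, number of divergent members (vertical axis, per 100 bp) by the position of the highest summit from the midpoint in PPP2CA 1 and PPP2CA 2; the divergent regions reach about equally far to each side, and the regions at 1 start reach 310 bp upstream and 651 bp downstream (medians).

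Members stood somewhat higher than regions at 1 gene. The summit height is the number of fragments at the peak's highest point, recovered from the authors' fold and p. In PPP2CA 1 members ranged from 6 to 899 fragments with a median of 35, and regions at 1 gene had a median of 27. In PPP2CA 2 members ranged from 7 to 1100 with a median of 39, against 29. The ratio of the medians was 1.30 and 1.34. The ranges overlapped almost wholly, and the middle range of members, from the lower to the upper quartile, was 21 to 62 fragments in PPP2CA 1 against 16 to 47 at 1 gene. Members were also wider, with a median of 1078 bp against 983 bp, and a wider region reaches a second boundary more easily. Members made up 202 of the 750 best-ranked boundary regions (26.9%) and 86 of the 750 lowest-ranked ones (11.5%). Since the calls that select the regions use this height, it is a description.

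The libraries gave closely similar heights at the members. PPP2CA 2 exceeded PPP2CA 1 by a median of 0.11 on the log2 scale, with an SD of 0.31 over the 1506 members, and 1498 members (99.5%) were within 2-fold. At the 890 members with summits within 100 bp of each other, the chi-square of the fragment numbers over its degrees of freedom was 0.779 after scaling. The libraries thus differed by less than the sampling noise there. Members had to be called in both libraries and these 890 had near summits, so the choice itself favours agreement. The libraries were counted as 1 sample, with values given per library and no SD over libraries.

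**Figure D4:**
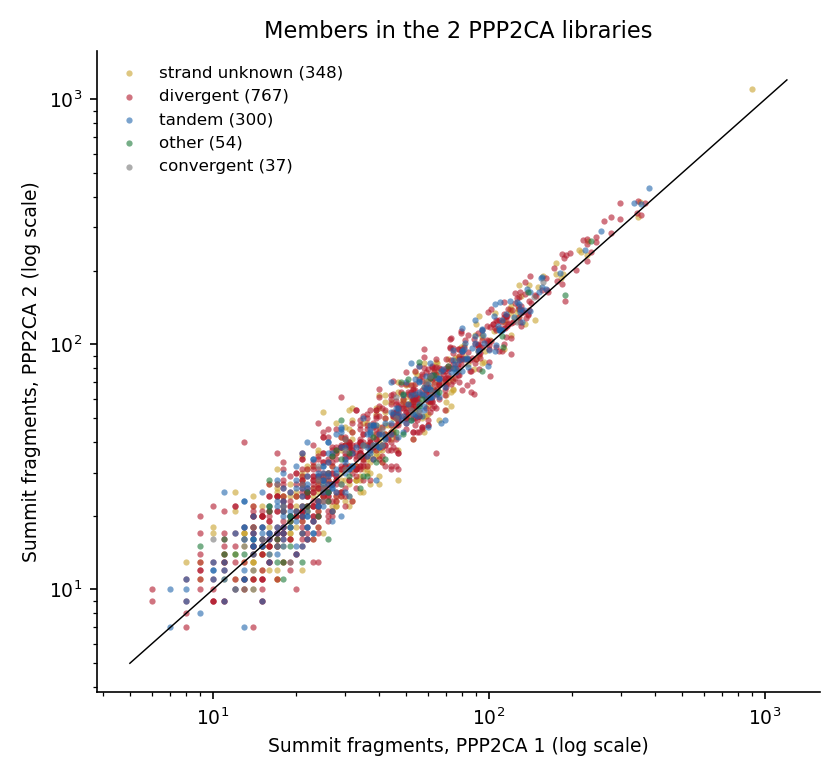
Summit fragments of the 1506 members in PPP2CA 1 (horizontal axis, log scale) and PPP2CA 2 (vertical axis, log scale), coloured by orientation, with the line of equal values. The points lie along the line from 6 to 1100 fragments, and the 767 divergent members span nearly the same range as the 300 tandem ones.

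Among the classes, height differed little. Divergent members had median summits of 36 and 40 fragments in PPP2CA 1 and 2, tandem members 35 and 38.5, and convergent members 29 and 31. Regions at the start of a single gene had 27 and 30, and regions at the end of a single gene 23 and 24. Within the divergent members, those with starts from 250 to under 500 bp apart had medians of 47 and 54 (69 regions) and those from 500 to under 1000 bp 64 and 61 (25 regions), against 34 and 37 under 250 bp (378 regions). Those from 1000 to 2000 bp apart had 55 and 54.5 (14 regions), so the medians were above the closest class from 250 bp on but did not climb steadily. Median widths were 1076.5 bp under 250 bp, 1187 and 1289 bp in the next classes and 927.5 bp in the last. The part of width and height in which pairs shared a region was not tested.

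The highest member lay between Sirt4, a mitochondrial sirtuin, and Pxn, which encodes the focal adhesion adaptor paxillin, with 899 fragments in PPP2CA 1 and 1100 in PPP2CA 2 and a fold over local background of 6.71 and 6.93 (the authors' values). It spanned 2658 bp (chr5:115489492-115492149), the facing ends were 1705 bp apart, and the strand of Pxn was not known here. In rank it was followed by Eif4a1, an RNA helicase of translation initiation, in tandem with the SUMO protease gene Senp3 (381 and 433 fragments). Shoc2, a scaffold of RAS signalling, and Bbip1, a subunit of the BBSome, came next among the divergent pairs with 298 and 377 fragments. The pair of Ccdc47 and the RNA helicase gene Ddx42 had 277 and 286 fragments, that of Mfsd11 and the splicing factor gene Srsf2 had 344 and 345, and that of Gart, a purine synthesis enzyme, and the splicing cofactor gene Son had 227 and 268. Mrps18b, a mitochondrial ribosomal protein, and Ppp1r10, a nuclear regulatory subunit of the phosphatase PP1, started 71 bp apart and had 355 and 338. Ddit3, a stress-induced transcription factor, and Mbd6 had 367 and 377. In each of these pairs both libraries were high, and the order of the libraries was not the same throughout.

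In tandem members the signal sat at the start and not at the neighbouring end. The summit was nearer to the start of the downstream gene than to the end of its neighbour in 272 of 300 tandem members in PPP2CA 1 (90.7%) and 268 in PPP2CA 2 (89.3%). Its median distance was 167.5 and 167 bp to the start and 693.5 and 688.5 bp to the end. At Eif4a1 and Senp3 the summits lay 81 and 353 bp from the Eif4a1 start and 768 and 1040 bp from the Senp3 end. At Polg2, the accessory subunit of the mitochondrial DNA polymerase, and the RNA helicase gene Ddx5 (336 and 379 fragments), they lay 260 and 263 bp from the Polg2 start and 558 and 555 bp from the Ddx5 end. At Maz, a zinc finger transcription factor, and Kif22, a chromosome-arm kinesin, they were 32 and 69 bp from the Maz start. An exception among the best tandem members was Hnrnpul1 and Axl, where the summits lay 1153 and 1246 bp from the Hnrnpul1 start and 1385 and 1478 bp from the Axl end.

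Convergent members were few and mostly lay away from the facing ends. The median summit was 920 bp from the nearer end in PPP2CA 1 and 877 bp in PPP2CA 2 (37 regions). An annotated start of any gene kind lay inside 15 of the 37 convergent regions, against 758 of the 767 divergent ones. The best convergent members included regions with an additional gene nearby. At Trmt112, Prdx5 and Esrra, which encode a methyltransferase cofactor, a peroxiredoxin and an orphan nuclear receptor, the region had 146 and 156 fragments. At the histone genes H2ac21, H2ac20 and H2bc21 it had 157 and 179, with the uncertainty of near-identical copies. Uba7, the activating enzyme for the ubiquitin-like protein ISG15, and Inka1 had a region of 126 and 124 fragments.

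The 54 members without a facing pair, whose nearest boundaries were both low or both high ends, were a mixed class. There were 28 with low ends and 26 with high ends, as occurs where genes are nested or overlap. A start lay next to a start in 16, a start next to an end in 19 and an end next to an end in 2, and a strand was missing in the rest. Of the 54, 20 (37.0%) involved a predicted model with a LOC or Gm name, against 67 of the 1452 facing members (4.61%). Their median summits were 30 fragments in PPP2CA 1 and 31 in PPP2CA 2. The best was at the predicted gene LOC114841036 and the immunophilin gene Fkbp2, with 235 and 263 fragments, followed by Serf2 and Serinc4 with 188 and 159. Ccdc9 and Inafm1 had 112 and 98, and Vamp3, a vesicle SNARE, and the model Gm38529 had 94 and 78.

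Members at 3 or more genes were 51 regions with median summits of 44 and 48 fragments. The largest gathering was at Tomm6, Gm20517, Usp49, Frs3 and Prickle4 on chromosome 17, where 1 region of 1759 bp lay within 1 kb of 5 genes and had 69 fragments in PPP2CA 1 and 49 in PPP2CA 2. The region at Eme2, Mrps34, Nme3 and Mapk8ip3 touched 4 genes over 2145 bp but was low, with 25 and 23 fragments.

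Marked divergent promoters were rich in CpG, and so were marked lone promoters. The promoter table gives 300 bases for each gene, from 250 before to 50 after the start. Divergent pairs with a shared region had a median of 24 CpG per window and a GC content of 62.3% at both genes. Lone starts with a region had 23 and 62.7%, lone starts without one had 7 and 53%, and all promoters of the table had 13 and 56.3%. Divergent pairs without any region lay between, with 18 and 17 CpG at the left and right gene. At like CpG numbers divergent pairs carried a region more often than lone starts, in a comparison added after the data were seen. A pair has both its starts and a wider window in which to meet a region, and what this adds was not tested. When sorting each divergent pair by the CpG number of its richer start, a shared region was found at 39.4% (22.9 to 57.9) of pairs with 5 to 9 CpG, 67.8% (61.0 to 74.1) with 10 to 19, 82.5% (78.4 to 86.1) with 20 to 29 and 84.2% (79.9 to 87.9) with 30 or more. Lone starts in the same classes had a region in 15.3%, 44.0%, 62.0% and 63.2% (61.0 to 65.5). None of these intervals overlapped between the kinds. With 0 to 4 CpG at both starts, 0 of 18 divergent pairs had a shared region, which allows a share of up to 16.7%, and 3.83% of 2817 lone starts had one. Of 114 divergent starts with 0 to 4 CpG, 63 had a partner with 10 or more, and 36 of these 63 had a region. Of the other 51 starts 4 had one. Gene expression was not measured in these libraries, and its part in these shares was not tested.

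**Figure D5:**
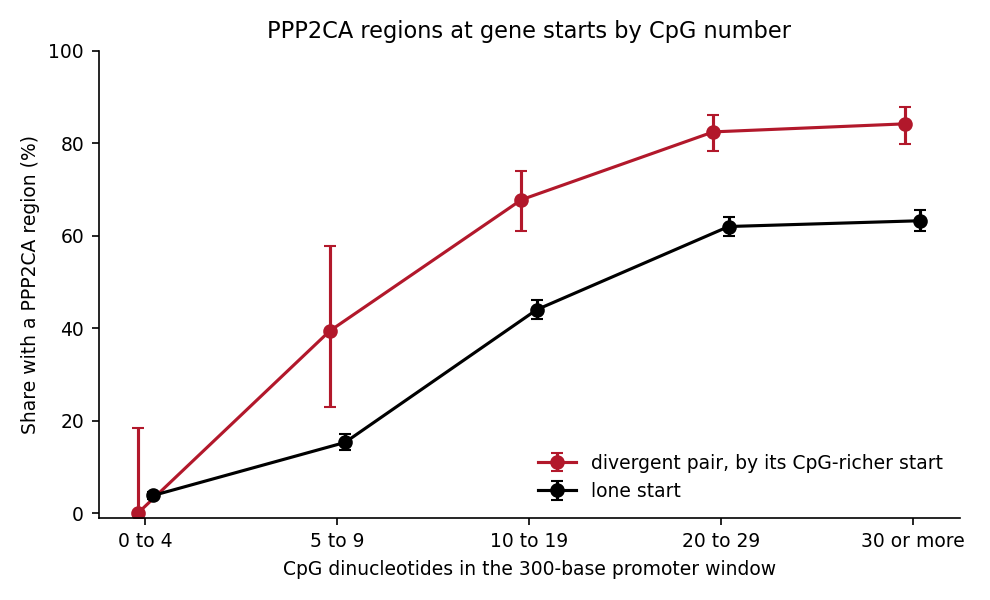
Share with a PPP2CA region (vertical axis, %) of divergent pairs, sorted by the CpG number of the richer of their 2 promoter windows, and of lone gene starts, by the CpG number of their window (horizontal axis, classes of CpG number); bars are 95% exact intervals. Divergent pairs lie above lone starts in each class from 5 CpG upward, and at 0 to 4 CpG the divergent share is 0 of 18 pairs. A pair has 2 starts at which to meet a region, a lone start only its own.

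Of the 11 motifs searched on both strands, the ETS letters CCGGAAG were among those more common in marked than in unmarked close pairs. ETS factors are a family of activators that bind this core in many housekeeping promoters. The letters were found in 27.6% (24.5 to 30.9) of the left and 29.4% (26.2 to 32.7) of the right windows of divergent pairs with a shared region. Divergent pairs without a region had them in 11.2% (7.13 to 16.4) and 15.2% (10.5 to 21.0), lone starts with a region in 18.6% (17.4 to 19.8), lone starts without one in 6.13% and all promoters in 11.9%. Starts in tandem pairs with a shared region had them in 26.2% (21.4 to 31.4), and tandem starts without one in 8.85%. The windows of a close divergent pair overlap, so its left and right values partly read the same bases. Within the 767 divergent members the letters did not go with height: the 287 with a match in either window had median summits of 35 and 39 fragments, and the 480 without had 39 and 41.

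Other letters also differed between the groups. GGGCGG was in 66.0% and 67.1% of the windows of divergent pairs with a shared region, 47.2% and 50.3% in divergent pairs without a region, 73.2% of lone starts with a region and 46.3% of all promoters. TATAAA was in 4.64% and 4.25% of those divergent windows, 6.05% of marked lone starts and 13.3% of all promoters. GATGGCGG, the core of YY1 sites, was in 5.28% and 6.44% against 1.52% and 2.54% in divergent pairs without a region, 3.85% of marked lone starts and 2.32% of all promoters. CTCGCGAG, letters that motif collections assign to ZBTB33, was in 3.22% (2.10 to 4.72) and 3.99% (2.73 to 5.62) of those divergent windows. Divergent pairs without a region had it in 2.54% (0.829 to 5.82) and 2.03% (0.556 to 5.12), so these intervals overlapped. It was in 2.38% of marked lone starts and 1.31% of all promoters. Divergent members with it in either window had the highest medians of the motif classes, 56 and 63 fragments in 35 regions against 35 and 39 in the 732 without. CCAAT ranged from 37.9% of lone starts without a region to 46.7% of the left windows of divergent pairs without one. These letters are not in every window of a factor's targets, and their absence says nothing of the factor.

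Among gene groups taken by symbol, histones, mitochondrial ribosomal proteins and respiratory chain genes were most often at a member. Of genes with a region, 34.1% were at a member. The share was 39 of 60 for histones (65.0%, 51.6 to 76.9), 33 of 58 for mitochondrial ribosomal proteins (56.9%, 43.2 to 69.8) and 40 of 79 for the respiratory chain and ATP synthase (50.6%, 39.1 to 62.1). DNA repair and replication genes had 29 of 63 (46.0%, 33.4 to 59.1), tRNA synthetases 14 of 32 (43.8%) and Tmem genes, named for predicted transmembrane proteins, 51 of 116 (44.0%). Cytosolic ribosomal proteins differed from their mitochondrial counterparts in this count: 74 of 78 had a region, but 22 of those 74 were at a member (29.7%, 19.7 to 41.5). Proteasome genes had 13 of 37 (35.1%), and Zfp genes, which encode zinc finger proteins, had 39 of 182 (21.4%, 15.7 to 28.1). The groups differed in how often their genes lie head to head. A close divergent pair held 37.2% of the mitochondrial ribosomal protein genes, 29.4% of the respiratory chain genes and 28.8% of the DNA repair and replication genes, but 14.1% of the cytosolic ribosomal protein genes, 7.30% of the Zfp genes and 9.21% of all protein-coding genes. Histones, with the highest share at members, had 25% in such pairs, below the DNA repair and replication genes, so the order at members was not that of head-to-head pairs. Once in such a pair, cytosolic and mitochondrial ribosomal protein genes carried a shared region about equally often, in 9 of 11 (81.8%, 48.2 to 97.7) and 23 of 29 (79.3%, 60.3 to 92.0), with intervals that overlap. Respiratory chain genes did in 26 of 32, DNA repair and replication genes in 21 of 23, histones in 12 of 21 and Zfp genes in 17 of 29 (58.6%, 38.9 to 76.5), against 77.1% of all genes in such pairs. Of 10 divergent pairs of 2 histone genes, 6 shared a region, and these 6 regions were high, with 141 to 346 fragments in PPP2CA 1 and 150 to 386 in PPP2CA 2. The 1109 olfactory receptor genes, whose expression belongs to olfactory neurons, had 0 regions, which allows a share of up to 0.271%.

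Pairs known from textbooks as sharing a promoter were looked up by name. Of 23 such pairs, 18 were divergent by strand here, and 16 of those 18 had a member. Among all divergent pairs 77.1% had a shared region, so the count shows nothing particular to the listed pairs. Of the 4 with an unknown strand 3 had one, which makes 19 in all. Hspd1 and Hspe1, the mitochondrial chaperonin and its cochaperonin, shared a region of 92 fragments in PPP2CA 1 and 79 in PPP2CA 2. Ppat and Paics, which encode enzymes of purine synthesis, shared one of 113 and 100. Prkdc, the catalytic subunit of the DNA-dependent protein kinase, and Mcm4, a subunit of the replicative helicase, shared one of 63 and 78. Tap1, the peptide transporter of antigen presentation, and Psmb9, an immunoproteasome subunit, shared one of 55 and 51. Surf1 and Surf2 had 47 and 49, Mutyh and Toe1 39 and 37, and Sirt3 and Psmd13 27 and 32. The lowest of the listed pairs were Ercc8 and Ndufaf2 with 11 and 15 fragments, and Nthl1 and Tsc2 with 15 and 12. The divergent pairs without a member were Col4a1 and Col4a2, which encode basement membrane collagens, and Pdcd10 and Serpini1, a serpin of neurons. Nudt1 and Mrm2 did not face each other as a divergent pair in the table.

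Of 26 PP2A genes, 18 had a region and 6 of these were at a member (33.3%), close to the 34.1% of all genes with a region. Ppp2r2d, a regulatory subunit, shared a region with Mapk1ip1 that had 74 fragments in PPP2CA 1 and 80 in PPP2CA 2. Strn4, a striatin-family regulatory subunit, lay in tandem with the kinase gene Prkd2 and had 84 and 81. Ppp2r3c, another regulatory subunit, shared a region of 57 and 45 with Prorp, a mitochondrial RNase P subunit. Ppme1, the methylesterase of the catalytic subunit, shared one of 47 and 49 with C2cd3. Ptpa, an activator of the phosphatase, and the carnitine acetyltransferase gene Crat had 31 and 39, and so did the PP2A inhibitor gene Cip2a with Dzip3. None of these regions was among the 15 best members.

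Among markers of the labelled cell type, few genes could be compared. Of 13 genes that mark or regulate haematopoietic stem cells, 8 had a region (Kit, Meis1, Mecom, Runx1, Tal1, Lyl1, Etv6 and Egr1), and of these Etv6 lay at a member, beside the predicted gene Gm46977 with 47 and 51 fragments. Over all protein-coding genes 39.5% had a region and 34.1% of those were at a member, and 8 genes are too few to place the markers above or below that share. Gata2, Hlf, Procr, Cd34 and Slamf1 had none. A region was also found at 1 of 5 lymphoid markers (Cd3d), 0 of 4 myeloid markers, 1 of 3 erythroid markers (Epor) and 1 of 3 stromal and endothelial markers (Kdr). A region at a gene is no measure of its expression.

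The 1 kb limit fell within a continuous range of distances. In 977 members the boundary of the second gene lay inside the region itself, in 317 it was up to 500 bp away and in 212 over 500 and up to 1000 bp, and a further 215 regions lay over 1000 and up to 1500 bp from a second gene. Just inside the limit were Kcnh6 and Dcaf7 at 1000 bp (58 and 62 fragments) and Actr1a and Sufu at 999 bp (50 and 55). Just outside were Slc35a1 and Cfap206 at 1003 bp (19 and 24) and Celsr3 and Slc26a6 at 1005 bp (40 and 53). Heights varied on both sides. Tarsl2 and Tm2d3, inside at 999 bp, had 9 and 13, and Igsf9 and Tagln2, outside at 1011 bp, had 123 and 145. The member with the widest gap between facing ends, 2905 bp, was at Plxdc1 and Arl5c with 53 and 68 fragments. The lowest-ranked member, at Ak8 and Spaca9, had 8 and 9 fragments, and its genes overlap by 1377 bp.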

How the data were processed

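CUT&Tag of mouse bone marrow haematopoietic stem cells gave 2 PPP2CA and 2 IgG libraries, grouped by their titles. The authors deposited 1 narrowPeak list per library. MACS2, BWA, Trimmomatic, HOMER, deepTools and ChIPseeker are listed, beside the builds mm10 and GRCm38, per the submitters' processing notes, with no role or setting. Use of IgG as a control during calling is not stated. The deposited fold is the ratio of a summit to its local background, and whether that came from the same library or from IgG is not stated either. The authors also gave −log10 p and −log10 q, a score of 10 times the −log10 q cut to a whole number, and the summit's offset in bases from the peak start, another deposited value. Peaks were called in each library separately, so values were compared within a list only.

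Summit fragments were recovered from the deposited fold, taken as (fragments + 1) / (background + 1), and the Poisson tail p. Whole numbers resulted for 100% of peaks within a relative error of 2e-05 in the p. On simulated data, 2000 of 2000 fragment numbers and 200 of 200 neighbouring pairs were recovered. Overlap meant 1 bp or more. Genes came from RefSeq tables of GRCm38.p6: 21779 protein-coding genes, with strand and promoter sequence from the promoter table, and genes placed below 3 Mb left out except on Y. In overlapping genes the facing ends were the high end of the left gene and the low end of the right one. A member with any facing pair counted as facing, by the closest such pair. Regions were ranked by −log10 q in each library, and the poorer rank counted. Intervals are 95% Clopper-Pearson intervals and cover counting error only, since neither genes nor PCR-amplified fragments are independent. Where 0 was found, the share that this allows is 3 counts of the total, not the interval's upper bound. No test between groups was made, since all results are descriptions of selected regions.

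The rule for named genes took the 15 best facing and 10 best other regions, regions at 4 or more genes, the textbook pairs, PP2A members, the regions nearest the 1 kb limit, and the 5 widest and 5 lowest members, of which a part is shown. Genes of other tandem, convergent and unmarked pairs were picked once their values were known. The members and gene lists were chosen with earlier results of these data known. Python 3.11.15, numpy 2.4.6, scipy 1.17.1 and matplotlib 3.10.9 were used. One pair of the textbook list is counted but its own result is not reported here.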

Additional observations from a re-analysis of the deposited data

How the results depend on the processing

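In all 11 alternatives divergent pairs were above tandem and tandem above convergent pairs, divergent pairs were above lone starts, and both ratios were above 1. Over the 11 recomputed results, 50 values moved beyond the limits set around the main value and 71 stayed within them. The limits were the exact interval for shares, 1.5 times for counts and a spread taken from the libraries for ratios. The 1506 members became 1152 (at least 20 summit fragments) to 1896 (window of 2 kb), and the 1452 facing members 1115 to 1835. The shares of lone starts and lone ends, and the alternatives for these and for each pair orientation, were added after the data were seen. The share of boundary regions that are members was 20.1%, 21.8% with peaks of −log10 q 5 or more only, 18.1% with a window of 0.5 kb, 23.7% with one of 2 kb, 17.6% by summits in place of regions and 23.7% with at least 20 summit fragments, and 18.6 to 20.2% on leaving out 1 library. The share of all close pairs with a shared region was 36.1%, 33.8% with peaks of −log10 q 5 or more only, 30.9% with a window of 0.5 kb, 43.4% with one of 2 kb, 29.5% by summits in place of regions and 27.8% with at least 20 summit fragments, and 36.3 to 37.9% on leaving out 1 library. For divergent pairs that share was 77.1%, 74.4% with peaks of −log10 q 5 or more only, 80.9% with a window of 2 kb, 72.0% by summits in place of regions and 60.6% with at least 20 summit fragments, and 77.9 to 79.5% on leaving out 1 library. For tandem pairs it was 35.0%, 30.9% with peaks of −log10 q 5 or more only, 23.7% with a window of 0.5 kb, 49.4% with one of 2 kb, 22.2% by summits in place of regions and 25.5% with at least 20 summit fragments, and 35.1 to 36.0% on leaving out 1 library. For convergent pairs it was 3.94%, 2.02% with a window of 0.5 kb, 9.41% with one of 2 kb, 1.15% by summits in place of regions and 2.69% with at least 20 summit fragments, and 3.94 to 5.57% on leaving out 1 library. The share of lone starts with a region was 36.6%, 31.3% with peaks of −log10 q 5 or more only, 35.2% with a window of 0.5 kb, 38.3% with one of 2 kb, 34.7% by summits in place of regions and 22.7% with at least 20 summit fragments, and 36.7 to 40.8% on leaving out 1 library. The share of lone ends with a region was 1.16%, 0.770% with peaks of −log10 q 5 or more only, 0.742% with a window of 0.5 kb, 2.17% with one of 2 kb, 0.705% by summits in place of regions and 0.639% with at least 20 summit fragments, and 1.16 to 1.99% on leaving out 1 library. The ratio of median summits, members over regions at 1 gene (mean of the libraries), was 1.32, 1.25 with peaks of −log10 q 5 or more only and 1.17 with at least 20 summit fragments, and 1.34 to 1.48 on leaving out 1 library. The ratio of median widths was 1.10, 1.08 with peaks of −log10 q 5 or more only, 1.08 with a window of 2 kb and 1.05 with at least 20 summit fragments, and 1.10 to 1.19 on leaving out 1 library. The tandem, convergent, lone-start and lone-end shares moved by over 1.5 times under 1 or more of these settings. On leaving out 1 library, lone ends moved so far, to 1.99% without PPP2CA replicate 1 and 1.89% without PPP2CA replicate 2. Leaving out a PPP2CA library also dropped the need for a call in both. These 2 values equal the shares of lone ends with a peak in PPP2CA 2 alone and in PPP2CA 1 alone. Wider or narrower windows took in more or fewer regions, and the cause of the other shifts was not tested. No paired analysis was possible because the results come from no test. The shallow IgG lists limit how many regions could be set aside.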

Other observations

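Some of the 230 divergent pairs without a shared region carried signal that the selection set aside. At 197 of them no selected region lay at either start. Both PPP2CA libraries had a peak there at 27 pairs, and at 25 of these an IgG peak lay there too. A further 54 pairs had a peak in 1 PPP2CA library alone, and 116 (58.9%) had none in either. Among the 63 of these pairs with 20 or more CpG at both starts, 19 had peaks in both PPP2CA libraries and an IgG peak, 18 had a peak in 1 PPP2CA library and 26 had none. The pairs named next were chosen after their values were seen. The 19 with an IgG peak include Hnrnpa2b1 and Cbx3, an RNA-binding protein and a heterochromatin protein whose shared CpG island is known for holding chromatin open, with 34 CpG in each window. Others are Tcta and the GTPase gene Rhoa, Hps5 and the transcription factor subunit gene Gtf2h1, Nfya, a subunit of the factor that binds CCAAT, with Oard1, and Atp5pb, an ATP synthase subunit, with Wdr77. Pairs with 20 or more CpG at both starts and no peak in either PPP2CA library include Wnt9b and Wnt3, which encode developmental signalling proteins, Smc1b, a meiotic cohesin subunit, with Ribc2, and Bhmt2 with Dmgdh, which encode enzymes of one-carbon metabolism prominent in liver. The same class also holds Cacnb1 with the ribosomal protein gene Rpl19, Lsm7 with Sppl2b, and Parpbp with Nup37. Whether any of these genes are expressed in these cells was not measured.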
